A study of Arabidopsis thaliana with 4 samples.

Results

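The genes described here are the cell wall and pectin genes among the targets of AGAMOUS (AG), the MADS-domain transcription factor that specifies stamens and carpels in Arabidopsis thaliana. They were chosen by their annotation in the authors' deposited target table. The first part of that annotation had to hold a word for pectin, pectate, polygalacturonase, xyloglucan, expansin, cellulose, glycosyl hydrolase, arabinogalactan or extensin, and AT2G01850 and AT5G21280 were left out by name. The rule gave 33 of 1958 target genes (1.69%). Of the words, cellulose matched no target gene.

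Binding was measured by chromatin immunoprecipitation and sequencing (ChIP-seq) of inflorescences, with an anti-GFP antibody, in 2 groups of 2 libraries each. The AG-GFP group had the genotype AG-GFP AP1-GR ap1 cal, and the negative control group had AP1-GR ap1 cal without the tagged protein. All plants were in the Ler-0 background, were about 4 weeks old and carried the ap1-1 and cal-1 mutations with AP1-GR under the 35S promoter, which is active in most tissues. All were treated with 10 μM dexamethasone, which starts flower formation in this system, and tissue was taken 4 days later, at about floral stage 4 to 5. The promoter that drives AG-GFP is not given in the sources used here. The whole inflorescence was sampled, so the flower organ or cell type in which a site was occupied cannot be read from these data. The deposited tables give 1 Poisson score per peak for all libraries together. No score carries a replicate error, no test between samples could be made, and the sequencing depth is unknown.

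The plant cell wall is a network of cellulose fibres held together by hemicelluloses such as xyloglucan and embedded in a gel of pectin. Growing organs loosen and remodel this network. Pectin methylesterases and acetylesterases trim side groups from pectin, and polygalacturonases and pectate lyases cut its backbone. Inhibitor proteins hold back some of the enzymes that act on pectin. Xyloglucan endotransglucosylases cut and rejoin xyloglucan, expansins loosen the bonds between polymers, and arabinogalactan proteins and extensins are glycoproteins of the cell surface and the wall. In flowers such enzymes take part in organ growth, in the separation of pollen grains and in the opening of anthers and fruits.

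The cell wall genes and the other targets had the same median score counted by gene, but not counted by peak. The median of each gene's highest score was 143.81 for the 33 cell wall genes (quartiles 62.03 and 278.52) and 143.81 for the other 1925 target genes (quartiles 80.05 and 286.74). The equal medians are a tie at a value that several peaks hold, since XTH9, with the middle score of the group, has that score. At or above the median peak of the whole list (139.67) lay 17 of the 33 cell wall genes (51.5%), against 995 of the 1925 other targets (51.7%). Within the group the scores spread from 38.14 to 1539.54. Above 300 lay 6 genes, and under 100 lay 15. Among the 10% of targets with the highest scores were 3 of the 33 genes (9.09%), PG2, AT5G55180 and AT5G08000. The 33 genes rested on 31 different peaks, and with each peak counted once the median score was lower, 92.19, against 141.14 for the 1237 peaks linked to any target gene. With only the peaks within 1000 bp upstream or inside the gene, the median was 85.33 over 13 cell wall genes, against 138.72 over 972 of all target genes. Both values lay within the exact 95% interval of the median of the 33 genes (72.68 to 220.82).

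**Figure D1:**
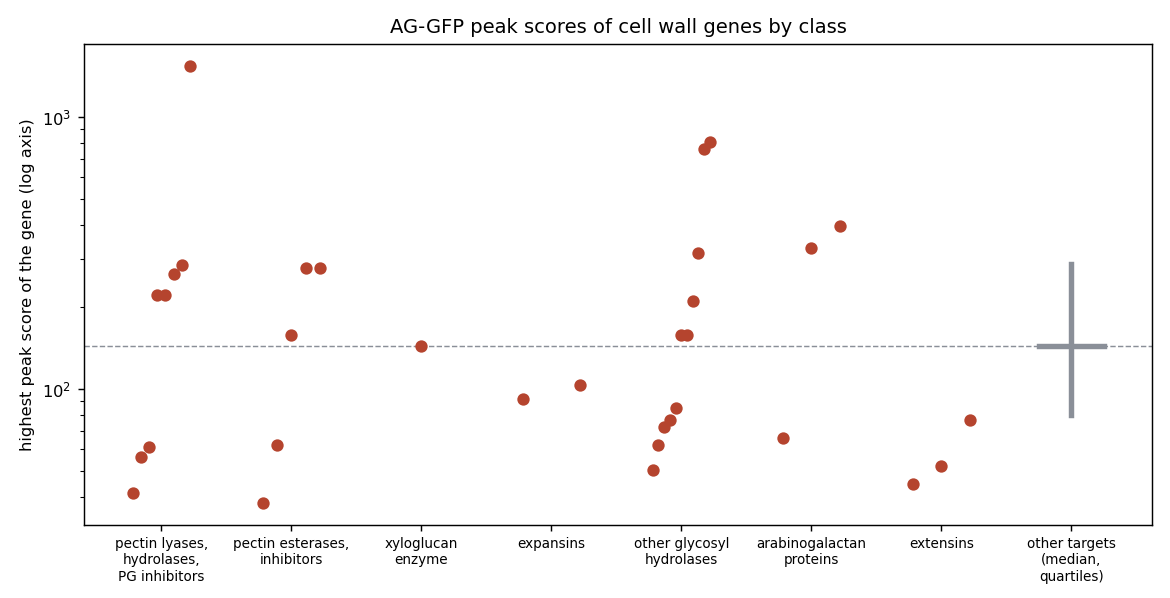
Highest AG-GFP peak score of each of the 33 cell wall genes (points, log axis) by class, with the median and quartiles of the 1925 other target genes at the right and that median as a dashed line. PG2 stands alone at 1539.54, while both expansin genes and all 3 extensin genes lie under the line.

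Among the 33 genes, the highest score belonged to a pectin gene. AT2G01850 (EXGT-A3), left out by name and annotated with homology to xyloglucan endotransglucosylases, scored higher (2673.32). PG2 (AT1G70370), annotated as a BURP-domain polygalacturonase, is related to the non-catalytic beta subunit of polygalacturonase. Its peak scored 1539.54 and ranked 25 among the 1421 peaks and 36 among the 1958 target genes. It lay 1000 to 2000 bp upstream of the gene, on chromosome 1 from 26516747 to 26517156 (TAIR10), and was 410 bp wide. It was linked to no other target gene, which was the case for only 5 of the 33 genes.

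The other polygalacturonase genes scored lower. AT3G15720 had a peak of 285.02 within 1000 bp downstream of its 3′ end, on chromosome 3 from 5324911 to 5325237. The peak of AT5G14650 scored 265.47 and lay 2000 to 3000 bp upstream, on chromosome 5 from 4722059 to 4722302. That peak fell inside the neighbouring gene SK13 (AT5G14640), annotated as a protein kinase. AT4G33440 had a peak of 56.21 within 1000 bp upstream, which also lay within 1000 bp upstream of BAK1 (AT4G33430), a co-receptor kinase of brassinosteroid and immune signalling. The first 2 of these scores were just under the upper quartile of all targets (286.31), and the third was below their lower quartile (78.17).

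The genes of the polygalacturonase inhibitors PGIP1 (AT5G06860) and PGIP2 (AT5G06870), leucine-rich repeat proteins that block fungal polygalacturonases, shared 1 peak. It scored 220.82 and lay on chromosome 5 from 2133798 to 2134048, within 1000 bp downstream of PGIP1 and within 1000 bp upstream of PGIP2. The noncoding gene AT5G06865, an antisense partner of PGIP1 by its annotation, and AT5G06890 were listed with the same peak. The gene on which a shared peak acts cannot be read from position. The 2 pectate lyase genes had low scores. AT4G13710 had a peak of 60.91 inside the gene. AT5G15110 had one of 41.45 within 1000 bp downstream, and that peak was also within 1000 bp upstream of AT5G15120.

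Among pectin esterases and their inhibitors, the highest score belonged to a pair of neighbours on 1 peak. AT5G62350 and AT5G62360, both annotated as members of the invertase and pectin methylesterase inhibitor family, were listed with the peak of 278.52 on chromosome 5 from 25038249 to 25038499. It lay within 1000 bp downstream of AT5G62350 and 2000 to 3000 bp upstream of AT5G62360. The pectinesterase genes AT2G47280 and AT3G27980 scored 158.45 and 38.14, both 1000 to 2000 bp upstream. The first of these peaks was nearer to MIR403, a microRNA gene, and the second to AT3G27990, a noncoding gene. The pectin acetylesterase gene AT4G19420 had a peak of 62.03 inside the gene and shared it with no other target. None of these 5 genes had a peak within 1000 bp upstream. With 5 genes, a count of 0 leaves room for a share of up to 52.2% by the exact 95% interval. The limit is 60% if it is set at 3 genes. The share in the other targets was 35.3%.

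The 3 genes for xyloglucan remodelling and wall loosening scored between 92.19 and 143.81, and each had a peak within 1000 bp upstream. The xyloglucan endotransglucosylase gene XTH9 (AT4G03210) scored 143.81 in the nearest upstream 1000 bp, with a peak on chromosome 4 from 1415322 to 1416113. At 792 bp it was the widest of the 31 peaks. EXPA10 (AT1G26770), an alpha-expansin gene, was the only cell wall gene with peaks in more than 1 region, against 149 of the 1925 other targets (7.74%). Its peaks scored 92.19 at 2000 to 3000 bp upstream and 85.33 within 1000 bp upstream. Their positions were 1552 bp apart on chromosome 1, in peaks from 9257025 to 9257196 and from 9258656 to 9258770, and neither was linked to another target gene. EXLA2 (AT4G38400), an expansin-like gene, scored 103.45 within 1000 bp upstream. Its peak was listed for 4 further genes, the largest number for any of the 33 genes. 1 of them was SKS9 (AT4G38420), a gene related to SKU5, a wall and cell surface protein of directional root growth.

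**Figure D2:**
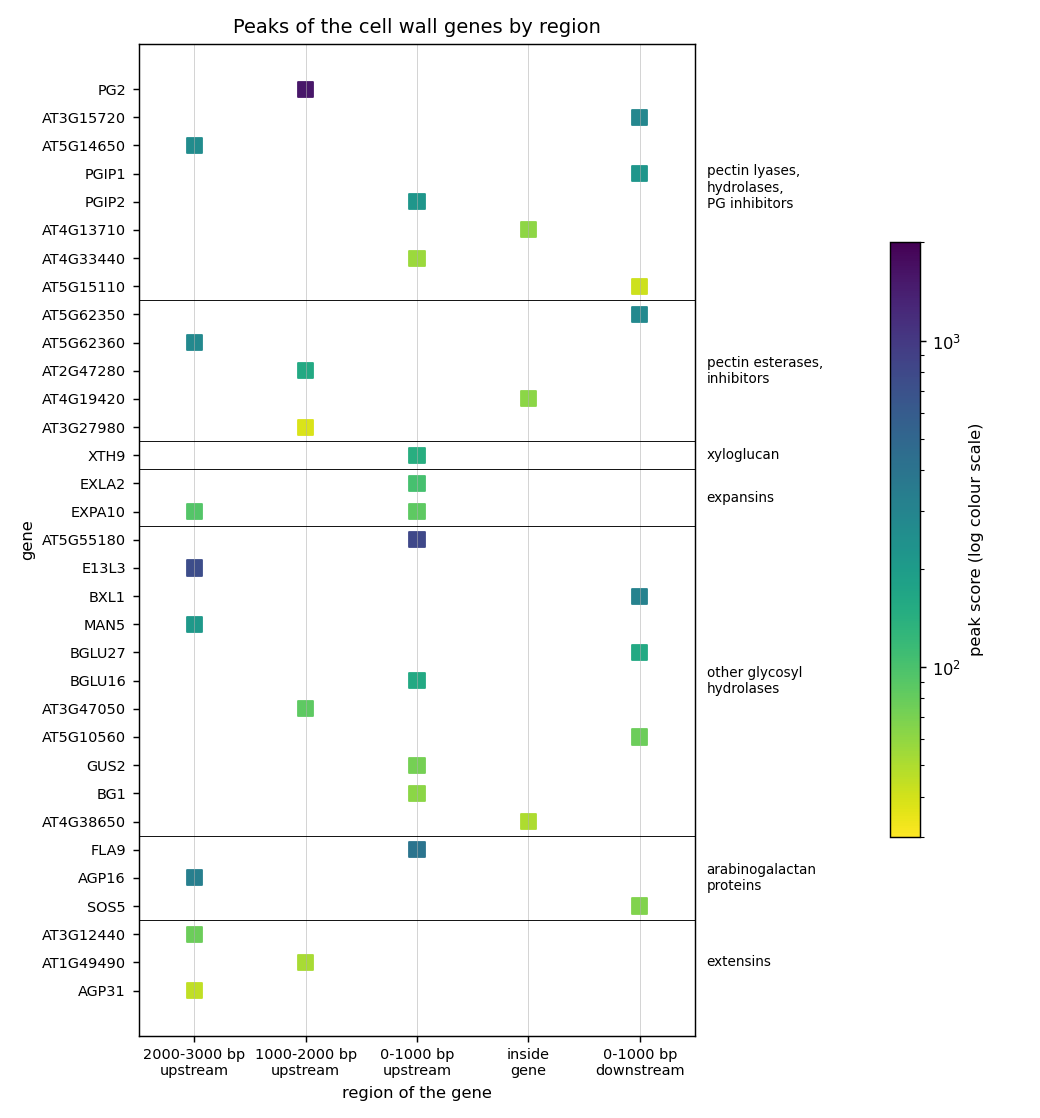
Region of the gene (horizontal) in which each of the 33 cell wall genes (vertical, by class) had an AG-GFP peak, with the score as colour on a log scale. EXPA10 is the only gene with 2 squares, and 3 genes (AT4G13710, AT4G19420 and AT4G38650) have a peak inside the gene.

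The 11 other glycosyl hydrolases had scores from 50.4 to 806.07, and 6 of them were at or above the median peak. They come from 6 families of these enzymes and do not all act on the wall. In family 17, which holds enzymes that cut callose, AT5G55180 had the second highest score of the group. Its peak of 806.07 lay within 1000 bp upstream, on chromosome 5 from 22388344 to 22388697, and was 2000 to 3000 bp upstream of SUMO3. AT5G08000 (E13L3, PDCB2) is placed in the same family by its annotation, and its product binds callose at plasmodesmata, the channels between plant cells. Its peak of 759.68 lay 2000 to 3000 bp upstream, on chromosome 5 from 2561185 to 2561399. This peak fell inside TT7 (AT5G07990), a flavonoid hydroxylase gene. The third gene of the family, BG1 (AT3G57270), scored 62.03, within 1000 bp upstream of both BG1 and AT3G57280.

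BXL1 (AT5G49360), a beta-xylosidase gene of glycosyl hydrolase family 3, had a peak of 314.65 within 1000 bp downstream, on chromosome 5 from 20011205 to 20011530. The same peak was within 1000 bp upstream of AT5G49350 and 2000 to 3000 bp upstream of TBL4 (AT5G49340). MAN5 (AT4G28320), a mannanase gene of family 5, scored 210.8 at 2000 to 3000 bp upstream, and AT4G28330 was nearer to that peak. The beta-glucosidase genes BGLU27 (AT3G60120) and BGLU16 (AT3G60130) of family 1 are neighbours and shared a peak of 157.66. It lay within 1000 bp downstream of BGLU27 and within 1000 bp upstream of BGLU16. The remaining genes of this class, AT3G47050 and AT5G10560 of family 3, GUS2 of family 79 and AT4G38650 of family 10, scored between 50.4 and 85.04. All 11 genes of the class, on 10 peaks, shared their peak with another target (exact 95% interval 71.5 to 100%), against 74.3% of the other targets. The interval included that share. It treats the genes as independent, although BGLU27 and BGLU16 shared their peak only with each other.

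Among the surface glycoproteins, 2 of the 3 genes classed as arabinogalactan proteins scored above the upper quartile of all targets (286.31). The third, SOS5, and the 3 genes classed as extensins scored below the lower quartile of all targets (78.17). FLA9 (AT1G03870), a fasciclin-like arabinogalactan protein gene, scored 395.27, with the peak on chromosome 1 from 983695 to 983996 and less than 1000 bp from the 5′ end. The same peak lay 1000 to 2000 bp upstream of PHB2 and of CRU2. AGP16 (AT2G46330), which encodes an arabinogalactan peptide, scored 329.32. The peak, on chromosome 2 from 19021241 to 19021450, was 2000 to 3000 bp upstream of AGP16 and within 1000 bp downstream of SPA1, a gene of light signalling. SOS5 (FLA4, AT3G46550), a fasciclin-like gene whose mutants have thin walls and swollen roots under salt, scored 65.95, downstream of the gene. The 3 extensin family genes all had their peaks more than 1000 bp upstream. AT3G12440 scored 76.82 and AT1G49490, which also has leucine-rich repeats, scored 51.89. AGP31 (AT1G28290), in this class by its annotation although its symbol is that of an arabinogalactan protein, scored 44.86.

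With 33 genes, no region held a share of peaks that stood apart from that of the other targets. A peak within 1000 bp upstream was listed for 10 cell wall genes (30.3%, exact 95% interval 15.6 to 48.7%), against 35.3% of the other targets. At 2000 to 3000 bp upstream there were 8 (24.2%, interval 11.1 to 42.3%), against 19.3%, and at 1000 to 2000 bp upstream 5 (15.2%, interval 5.11 to 31.9%), against 19.4%. Inside the gene there were 3 (9.09%, interval 1.92 to 24.3%), against 15.4%. Within 1000 bp downstream there were 8 (24.2%, interval 11.1 to 42.3%), against 19.2%. Each interval included the share of the other targets. The intervals treat genes as independent, although 6 cell wall genes share 3 peaks, and they cover counting error only.

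**Figure D3:**
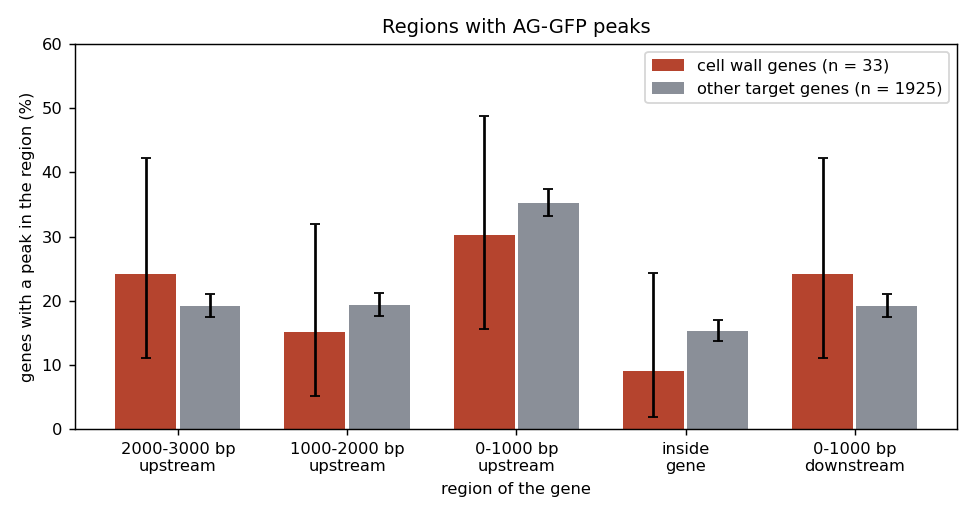
Percent of the 33 cell wall genes and of the 1925 other target genes with an AG-GFP peak in each region, with exact 95% intervals as error bars. The intervals of the cell wall genes hold the share of the other targets in all 5 regions.

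Most of the cell wall genes shared their peak with a further target gene. Of the 33 cell wall genes, 28 (84.8%, exact 95% interval 68.1 to 94.9%) shared a peak with another target, against 1398 of the 1882 other targets that could be linked to a peak (74.3%). The interval, which treats the genes as independent, included that share. The peak lay in a nearer region of the other gene for 10 of the 28, such as AT5G14650, AT5G08000 and AGP16. For 5 genes, FLA9 and AT5G55180 among them, the cell wall gene had the nearer region than every partner. The region of AT5G55180 is the deposited one and could not be recomputed from the gene's position in RefSeq. The remaining 13 were level with at least 1 partner and behind none. Here a peak inside a gene counted as nearest, followed by one within 1000 bp on either side and by the upstream regions in order. In 3 cases the partner was another cell wall gene: PGIP1 with PGIP2, AT5G62350 with AT5G62360, and BGLU27 with BGLU16. Each of these pairs consists of neighbours with the same annotated family, and each pair counts as 1 peak in the list and not 2.

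The peaks of these genes were of ordinary width. The 31 peaks had a median width of 202 bp (51 to 792 bp), against 234 bp for the 1229 peaks linked to the other targets. XTH9 combined the widest of the 31 peaks with a score close to the median, while the peak of PG2 was 410 bp wide. The genes were found on all 5 chromosomes. On chromosome 5 lay 11 (33.3%, against 24.6% of all targets), on chromosome 3 lay 8 (24.24%, against 20.53%) and on chromosome 4 lay 7 (21.21%, against 14.3%). On chromosome 1 lay 5 (15.15%, against 26.35%) and on chromosome 2 lay 2 (6.06%, against 14.2%). The count for chromosome 5 includes PGIP1 with PGIP2 and AT5G62350 with AT5G62360, each pair on 1 peak. No interval was computed for these shares.

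**Figure D4:**
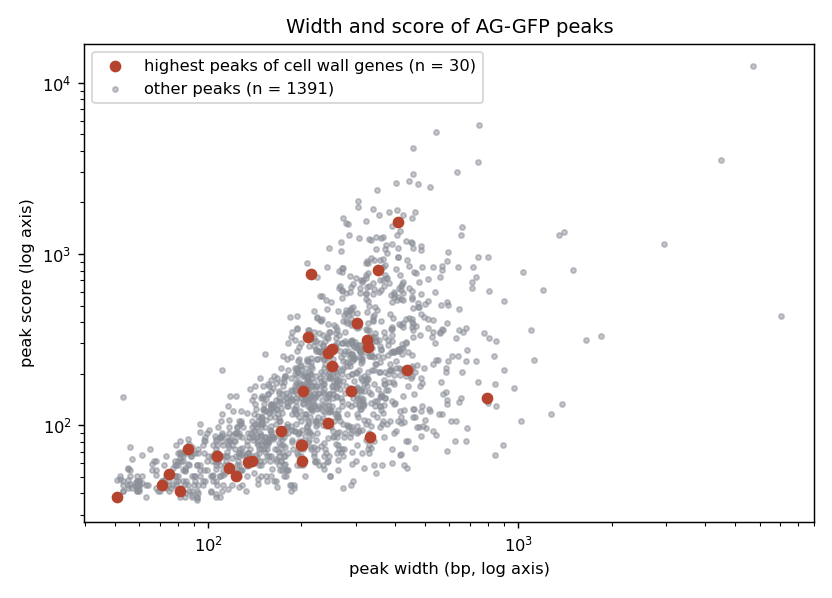
Width in bp and score of the 30 different highest peaks of the cell wall genes and of the 1391 other peaks, both on log axes. The cell wall peaks lie within the cloud of the others, with PG2 at 1539.54 as the highest and XTH9 at 792 bp as the widest.

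The share of cell wall family genes among the targets had an interval that included the share of all genes. Of the protein-coding nuclear genes in RefSeq, 6.62% were in the target table. Of 221 genes whose symbol places them in 1 of 8 wall families, 13 were (5.88%, exact 95% interval 3.17 to 9.85%). The xyloglucan endotransglucosylase family had 2 of 30 genes, XTH9 and XTH28, and the expansins had 2 of 33, EXPA10 and EXLA2. With synonyms, the xyloglucan endotransglucosylases had 3 of 33 (9.09%, interval 1.92 to 24.3%). The added target was AT2G01850, left out by name, with the highest score of the family (2673.32, 1000 to 2000 bp upstream). XTH28 (517.43, inside the gene) is no member of the group because its annotation says glycoside hydrolase, and the rule searched for glycosyl hydrolase. Target genes annotated only with the first spelling are missed by the rule. The cellulose synthase superfamily had 2 of 37 (5.41%, interval 0.66 to 18.2%). Both, CSLA02 (121.71) and CSLA09 (158.45), encode mannan synthases and had the peak inside the gene. The CESA genes, none of them a target, were not counted apart from the superfamily, so no share or limit is given for them. No target was found among 13 pectin methylesterase and inhibitor genes named by symbol, 15 beta-galactosidases, 21 family 9 glycosyl hydrolases and 23 extensin and extensin-like genes. At these sizes a count of 0 leaves room for a share of 23.1, 20.0, 14.3 and 13.0%, so a share equal to that of all genes was within reach in each. These counts cover only genes with a family symbol. They miss targets annotated as pectinesterases or their inhibitors (AT2G47280, AT3G27980, AT5G62350, AT5G62360) or as extensins (AT3G12440, AT1G49490). The counts of 0 therefore do not show that these families lack targets.

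The fasciclin-like and other arabinogalactan genes had the highest share, 7 of 49 (14.3%, exact 95% interval 5.94 to 27.2%). The interval included the 6.62% of all genes. With synonyms, which add SOS5, the count was 8 of 50 (16.0%, interval 7.17 to 29.1%). This interval lay above the 6.62%, so the reading depends on how the family is named, and no test of it was run. Beside FLA9, AGP16, AGP31 and SOS5, the targets were the closely related fasciclin-like genes FLA15, FLA16, FLA17 and FLA18, whose annotation opens with the fasciclin domain. FLA15 had a peak of 116.86 inside the gene, FLA18 one of 76.82 and FLA16 one of 54.43 within 1000 bp upstream, and FLA17 one of 59.8 at 1000 to 2000 bp upstream. All 4 scores were below the median peak, and each of these peaks was linked to another target as well.

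**Figure D5:**
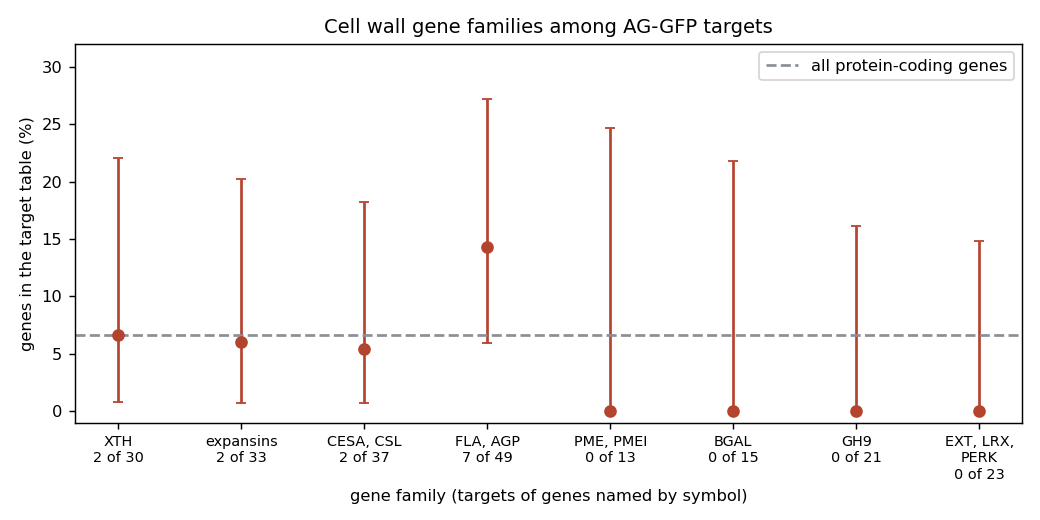
Percent of the genes of 8 cell wall families, named by symbol, that are in the target table, with exact 95% intervals and the 6.62% of all protein-coding genes as a dashed line. The 7 of 49 FLA and AGP genes are highest, and all 8 intervals reach or cross the line.

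The lists of well-known cell wall genes held targets at the share of all genes. Of 70 symbols listed, 60 could be matched to a gene, and the others were left out. Of the 60 genes, 4 were in the table (6.67%, exact 95% interval 1.85 to 16.2%), against 6.62% of all protein-coding genes. The lists were chosen with earlier results of these data known. Among 15 cellulose synthesis genes the only one was COB, which encodes a membrane-anchored protein that orients cellulose fibres, with a score of 210.92 downstream of the gene. Of 9 pectin synthesis genes it was GAE6, an epimerase gene that supplies galacturonic acid, with 250.19 within 1000 bp upstream. Of 12 wall protein and wall sensor genes, SOS5 and the receptor kinase gene FER (199.53, within 1000 bp upstream) were targets. None of the 14 matched genes for pectin modification (18 symbols listed) was in the table. Among these were the QRT1, QRT2 and QRT3 genes, which separate pollen grains, and ADPG1 and ADPG2, which act in anther and fruit opening. None of 10 xyloglucan synthesis genes was in the table either. The limits that these counts of 0 set are 21.4 and 30.0%.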

How the data were processed

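The authors deposited a peak list and a target table, with a Poisson score per peak, per the file headers, and peak positions and widths in bp. The build is TAIR10 by the submitters' processing notes. Which aligner and peak caller were run, with what threshold, and how replicates were combined is not given in the sources used here. In the peak list, the headings of score and position are exchanged, and both were read by their values. The target table gives each gene's highest score in 5 regions, per the file headers.

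Members were chosen by annotation words, of the 2 genes to be left out 1 matched them, and each gene went to the first of 8 classes whose words it held. The members and lists were chosen with earlier results of these data known. Each score was linked to the peak of that score (tolerance 0.006) within 3000 bp of the gene's span in RefSeq (TAIR10.1, used for names and neighbourhood). All 33 members had 1 such peak, and their regions could be recomputed from these spans for 28. The regions of AT5G55180, XTH9, SOS5, AT5G62350 and AT5G10560 could not be recomputed and are given as deposited. The linking was tested on simulated data. The genes to be named were the 5 highest of each class, list members and the 10 highest with their locus. Other names were chosen after values were seen. Shares carry exact Clopper-Pearson intervals, and a count of 0 is given the limit of 3 genes. No test was run, since no value per library was used. Promoter sequences were not used here, so the planned CArG-box search was not run. Python 3.11.15, pandas 2.3.3, numpy 2.4.6, scipy 1.17.1 and matplotlib 3.10.9 were used.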

Additional observations from a re-analysis of the deposited data

How the results depend on the processing

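Of 20 alternatives over 5 results, 17 stayed within the exact 95% interval of the reported value or within 1.5 times a count. With a minimum score at the median peak, 17 of the 33 cell wall genes were left, and the share of wall families among the targets was 2.26%, against 3.42% of all protein-coding genes. With only peaks within 1000 bp upstream or inside the gene, the order was the other way. The share of wall families was then 4.52%, against 3.31% of all protein-coding genes. The median score was 62.03 over the 5 genes whose peak was linked to no other target, against 142.08 over 489 such genes among all targets. The cause was not tested. A further 2 settings moved the median by more than 1.5 times but stayed within its interval (72.68 to 220.82): peaks within 1000 bp upstream or inside the gene (85.33 over 13 genes, against 138.72 over 972 of all targets) and each peak counted once (92.19, against 141.14). Counting peaks once, and leaving out the glycosyl hydrolases, were chosen after seeing the data. Searching the whole annotation gave 44 genes with a median score of 103.45. No paired analysis was possible because the tables give no value per library, and for the same reason no replicate could be left out. Without counts, depth sets no interval on a score.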

Other observations

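The weakest peaks of the cell wall genes had their summit at an edge. The 3 peaks with a score under 50, at AGP31, AT5G15110 and AT3G27980, were 71, 81 and 51 bp wide, and in each the position of the peak lay within 10% of the width from one end. This was so for 18 of the 98 other peaks with a score under 50 (18.4%). Of peaks scoring at least 50, it was so for 0 of 28 of the cell wall genes and 11 of 1292 others (0.85%). The 3 weak peaks of the cell wall genes were picked out after their values were seen, and no test was run. The count depends on both limits. The position in the peak of AT3G27980 lay at the edge limit itself (10.0%), and that in the next weakest peak, of AT4G38650 (50.4), lay at 25.4%.

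The words of the rule also occur later in the annotation of 11 further target genes. These include SKS17 (AT5G66920), related to SKU5, with a peak of 669.41 inside the gene, and AT2G27390, annotated as a proline-rich protein, with 205.2 at 1000 to 2000 bp upstream. Both were named after their values were seen.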
